A study of Mus musculus with 6 samples.

Results

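Explants of mouse mesoderm treated with an inhibitor that the labels call PD were compared with untreated explants across the transcriptome, with 2 libraries in each group. A gene entered the comparison when it had at least 10 counts in at least 2 of these 4 libraries. This rule kept 15032 of the 46078 genes in the deposited table, while 24987 genes had a count in any of the 4 libraries. Explants of both groups were dissected from E7.25 embryos after digestion with trypsin and pancreatin, and adhered to fibronectin, a matrix protein, for 3 to 4 h. PD explants were exposed to 1 µM PD for 16 h. Control explants received no inhibitor, and whether they received its solvent is not stated. Every sample is labelled wild type, whereas the series text names TCF/Lef:H2B-GFP reporter mice for all explants, and the length of culture is given as 27 h in one place and 24 h in another. Explants treated with 10 µM YZ9 for 16 h, the third group of 2 libraries, entered only the estimate of the spread between libraries. How many explants or embryos went into a library is not stated, so the p-values reflect only how much these libraries vary. In the other groups this spread may be technical, while the 2 PD libraries came from different embryos, as given below.

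Mesoderm forms when epiblast cells leave the primitive streak, give up their epithelial contacts and migrate between the other germ layers. Fibroblast growth factors act in the gastrula through receptor tyrosine kinases and the RAS, RAF, MEK and ERK kinases, and this pathway is needed for cells to leave the streak and for mesoderm to be specified. Active ERK also induces its own inhibitors, such as the Sprouty and Spred proteins, and these feedback genes are the usual readout of the pathway. The genes described here lie mostly outside that feedback group.

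Total counts ranged from 25395141 to 27529450 per library, and between 20189 and 20740 genes had a count. Counts of Xist, the X inactivation RNA of female cells, were 2119 in PD replicate 2 and at most 1 elsewhere. Summed counts of the 4 Y-linked genes were 3 in PD replicate 2 against 8875 to 9736 in the remaining libraries. The groups therefore differed in sex by 1 library, and the 2 PD libraries came from different embryos. Over 541 X-linked genes the median log2 ratio to the control mean was -0.011 in PD replicate 1 and -0.019 in PD replicate 2, against -0.016 and -0.0085 over 14473 autosomal genes (0.1 CPM added to each value). Of 21 listed genes of the streak and nascent mesoderm, 13 were tested, with summed levels of 229.4, 154.7, 100.8 and 89.83 CPM, and others were at or near 0. Msgn1 was at 0 in all 4 libraries, Tbx6 had 1, 0, 0 and 2 counts, Mesp1 0, 4, 7 and 0, and T (Brachyury) 0, 0, 0 and 8, in the order control 1, control 2, PD 1 and PD 2 that is kept throughout. Other members were detected in the controls: Eomes had 185, 145, 0 and 0 counts, Fgf8 121, 60, 25 and 9, and Mixl1 93, 39, 1 and 6. Lateral and extraembryonic mesoderm genes were present, with 24 of 25 listed genes tested and summed levels of 5726, 4733, 4897 and 9194 CPM (counts scaled by the effective library size).

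Promoter sequences are shown for 3 genes that differed between the groups and whose window held a match to a motif of a transcription factor family that ERK signalling is known to act on. Morrbid, a long noncoding RNA gene, was lower with PD, and Cldn4 and Spint1, epithelial genes, were higher in both PD libraries. Each window runs from 250 bases before to 50 bases after the start of the gene in RefSeq (GRCm38.p6), 5′ to 3′ on the gene's strand. Capitals mark the ETS motif CCGGAAG, the AP-1 motif TGAGTCA or the EGR motif GCGTGGGCG, on either strand. The windows lie at chr2:128429302-128429601 on the minus strand for Morrbid, chr5:134946885-134947184 on the minus strand for Cldn4 and chr2:119237110-119237409 on the plus strand for Spint1.
Morrbid: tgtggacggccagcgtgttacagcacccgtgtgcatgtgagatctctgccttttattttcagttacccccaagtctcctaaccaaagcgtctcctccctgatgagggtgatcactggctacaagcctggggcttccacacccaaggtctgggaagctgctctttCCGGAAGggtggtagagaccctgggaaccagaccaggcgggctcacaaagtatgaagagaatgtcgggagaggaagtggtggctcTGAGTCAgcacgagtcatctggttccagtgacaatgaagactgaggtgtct
Cldn4: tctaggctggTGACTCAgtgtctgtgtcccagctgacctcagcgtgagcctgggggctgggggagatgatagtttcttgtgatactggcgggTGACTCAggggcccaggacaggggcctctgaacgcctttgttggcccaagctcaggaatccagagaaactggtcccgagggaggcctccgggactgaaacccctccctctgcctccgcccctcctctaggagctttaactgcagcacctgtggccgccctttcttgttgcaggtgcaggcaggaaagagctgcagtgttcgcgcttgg
Spint1: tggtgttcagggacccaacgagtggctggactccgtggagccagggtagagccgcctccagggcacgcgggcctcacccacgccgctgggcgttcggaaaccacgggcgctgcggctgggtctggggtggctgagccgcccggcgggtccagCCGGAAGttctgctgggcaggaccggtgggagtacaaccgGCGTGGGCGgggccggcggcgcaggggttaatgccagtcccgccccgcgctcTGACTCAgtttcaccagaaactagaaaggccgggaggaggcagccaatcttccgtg
Distances are given from the first base of a match to the start site. The Morrbid window held an ETS match at 86 bases and an AP-1 match at 1 base before the site, which the AP-1 match runs across. The counted Morrbid gene spans 128178319 to 128502765, so this RefSeq start lies inside it and not at its 5′ end. The Cldn4 window held AP-1 matches 240 and 158 bases before its start site. The Spint1 window held an ETS match at 98, an EGR match at 58 and an AP-1 match at 6 bases before its start site. Over all 32851 RefSeq promoter windows, 8.86% held the ETS motif, 5.2% the AP-1 motif and 0.612% the EGR motif. Among the 13952 windows of tested genes the ETS share was 16.3%, the AP-1 share 3.71% and the EGR share 1.15%. Of the 12 genes that fell, 7 had a window in the table, and Morrbid was the 1 of these 7 (14.3%) with an ETS match, against 19.1% of tested genes, and also the 1 with an AP-1 match, against 4.49%. The ETS share was 5.81% of 706 windows of genes at least 2-fold higher with PD without overlap and 4.61% of 846 windows of the corresponding lower genes, and the AP-1 shares were 5.67% and 6.03%. A match describes letters in a window and not a bound site.

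Across the transcriptome, 3 genes rose and 12 fell with PD at an adjusted p under 0.05 in edgeR's quasi-likelihood test, which is 0.02% and 0.0798% of the 15032 genes, or 0.0998% in both directions. At an unadjusted p under 0.05 there were 812 higher and 829 lower genes (5.4% and 5.51%). Without control replicate 1, and likewise without control replicate 2, 0 genes passed in either direction (716 higher and 538 lower at an unadjusted p under 0.05 in the first case, 480 and 570 in the second), while DESeq2 on the same genes gave 311 higher and 320 lower. All 15 were among the 594 genes (293 higher, 301 lower) that the authors' deposited table gives at the same threshold with DESeq2. The log2 fold changes centred on 0 with a median of 0.0032. Of all genes, 70.6% lay within 0.5 of 0 and 86.6% within 1, and the 5th and 95th percentiles were -1.26 and 1.20. Beyond a log2 fold change of 2 in either direction lay 318 higher and 322 lower genes, so large differences were about as many in both directions. The plot of fold change against level shows this shape.

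**Figure D1:**
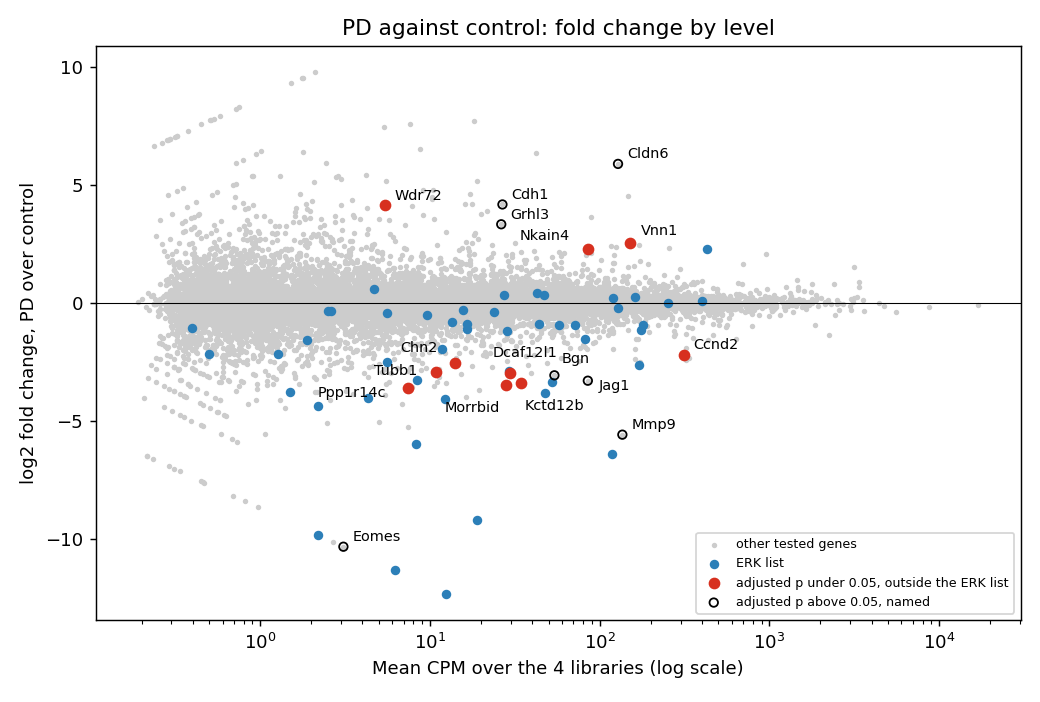
Log2 fold change of PD over control (y axis) against the mean CPM over the 4 libraries (x axis, log scale) for each of the 15032 tested genes, with the ERK target list in blue, the 10 genes past the threshold outside that list in red and 7 other genes named in the text as open circles. The cloud centres on 0 and widens below about 10 CPM, and straight lines of points at the edges are genes with 0 counts in a group.

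Because the test passed few genes, a description by separation of the libraries was used beside it. A gene was counted as higher or lower when the group means differed at least 2-fold and both PD libraries lay beyond both controls. This held for 774 higher genes (5.15% of those tested) and 969 lower genes (6.45%), of which 773 and 945 lay outside the ERK target list (5.16% and 6.31% of the 14985 tested genes outside it). The same size of difference occurred within groups: 1861 genes (12.4%) differed at least 2-fold between the 2 controls and 2726 (18.1%) between the 2 PD libraries. These within-group shares were above the 11.6% that separated the groups, a count that also asks for no overlap. Below, a listed gene is called higher or lower when it met this rule, and rose or fell only when it passed edgeR's test. PD replicate 1 was at least 2-fold above PD replicate 2 for 1611 genes (10.7%) and at least 2-fold below it for 1115 (7.42%). Of the 774 higher genes, 192 were at least 2-fold higher in PD replicate 1 than in PD replicate 2 and 89 the other way, and 136 (17.6%) had both pairs of libraries within 1.5-fold. Of the 969 lower genes, 189 (19.5%) had both pairs within 1.5-fold. The filter itself admitted 269 genes through the controls alone and 203 through PD alone, which had to differ, and 13069 genes had at least 10 counts in all 4 libraries.

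The spread depended on the level. Below 1 CPM, 40.9% of 2258 genes differed 2-fold between the 2 controls, 47.3% between the 2 PD libraries and 27.4% between the groups without overlap. Between 10 and 100 CPM the shares were 3.99%, 7.18% and 5.06% of 6242 genes, and 11 of the 15 genes past the threshold lay there. Above 1000 CPM, 1 of 109 genes (0.917%) was at least 2-fold different without overlap. Among the most abundant transcripts, group differences of this size were thus rare.

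**Figure D2:**
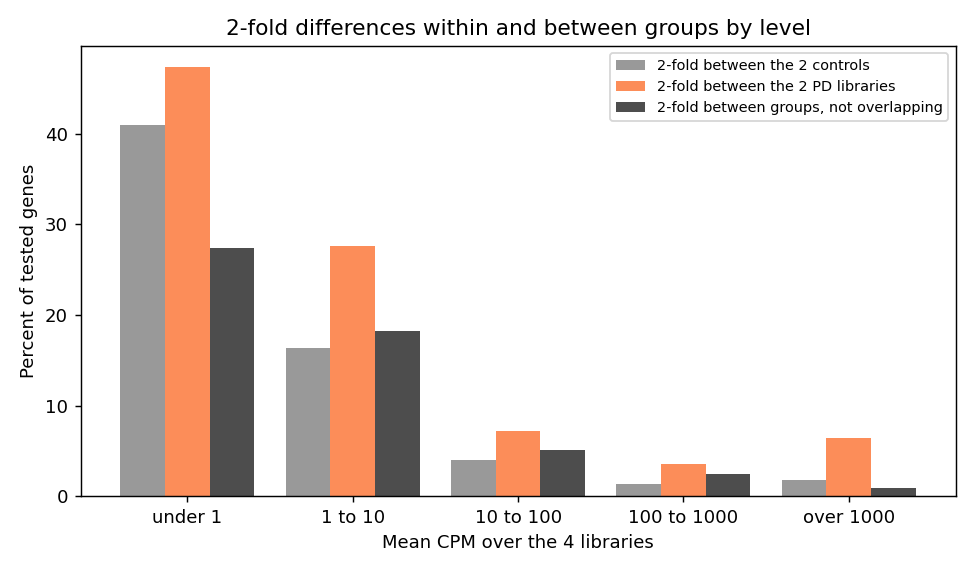
Percent of tested genes (y axis) that differed at least 2-fold between the 2 controls (grey), between the 2 PD libraries (orange) or between the groups without overlap (dark), by mean CPM (x axis). In every class of level the share between the PD libraries exceeded the share between the groups, for example 7.18% against 5.06% from 10 to 100 CPM.

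Of the 12 genes that fell, 5 were ERK targets or feedback inhibitors (Spred1, Spry4, Ccnd1, Egr1 and Spry2), and the 47 tested genes of that list had a median log2 fold change of -1.10, with 24 lower (51.1%, against 6.45% of all genes) and 1 higher. The other 7 and all 3 that rose are not on it. Vnn1, which encodes the pantetheinase that releases the coenzyme A precursor pantothenate, had 1159 and 1176 counts in the controls and 7777 and 5332 with PD. It rose (log2 fold change 2.55, SE 0.22, adjusted p = 0.0414). Nkain4, a gene for a protein that binds the sodium pump, had 826, 715, 3706 and 3524 counts (log2 fold change 2.30, SE 0.22, adjusted p = 0.0414). Both PD libraries lay well above both controls for these genes, and the 2 libraries of a group lay close together. Wdr72, a gene of tooth enamel formation, had 15, 16, 265 and 262 counts and rose from a low level (log2 fold change 4.14, SE 0.44, adjusted p = 0.0487).

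Among the genes that fell, Ccnd2, the gene of cyclin D2, a regulatory subunit of the G1 kinases, had 15032 and 12670 counts in the controls and 2631 and 3132 with PD (log2 fold change -2.19, SE 0.23, adjusted p = 0.0471). Morrbid, a noncoding RNA gene known to restrain the neighbouring death gene Bcl2l11, had 1201, 1540, 102 and 131 counts (log2 fold change -3.48, SE 0.37, adjusted p = 0.0482). Bcl2l11 itself, a member of the ERK list, had 524, 389, 313 and 193 counts, with no rise (log2 fold change -0.79, adjusted p = 0.493). Ppp1r14c, a protein phosphatase 1 inhibitor, had 311, 418, 32 and 25 counts (log2 fold change -3.61, SE 0.36, adjusted p = 0.0471). Chn2, which encodes a RAC GTPase activating protein, had 619, 657, 115 and 94 counts (log2 fold change -2.54, SE 0.24, adjusted p = 0.0414). Tubb1, whose product is the tubulin of the platelet rim, had 463, 554, 66 and 62 counts (log2 fold change -2.92, SE 0.30, adjusted p = 0.0471). In each of these 5 genes that fell the groups were far apart, and both PD libraries were low to a like degree.

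The remaining 2 genes that fell are on the X chromosome. Kctd12b, a member of the potassium channel tetramerization domain family, had 1601, 1746, 113 and 187 counts (log2 fold change -3.40, SE 0.31, adjusted p = 0.0414). Dcaf12l1, a WD repeat gene, had 1591, 1222, 164 and 179 counts (log2 fold change -2.96, SE 0.29, adjusted p = 0.0414). Both were as low in the male PD replicate 1 as in the female PD replicate 2. Exons of Nkain4, Chn2, Ppp1r14c, Ccnd2 and Morrbid overlap exons of a gene on the other strand, and the kit does not keep the strand, so reads of the partners cannot be told apart. Among genes named below the same holds for Elf3, Krt7, Eng, Gata5, Myh7, Myom1, Sorbs2, Fbn1, Tnc, Gpc1, Col4a1, Itga4, Notch1, Rarb, Hoxb2, Pdgfra, Gas1, Hhip, Cdk6, Bcl2, Lin28a, Hmga2, Slc2a1, Txnip, Eomes, Pde3a, Cxcl16 and Kcnk1.

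**Figure D3:**
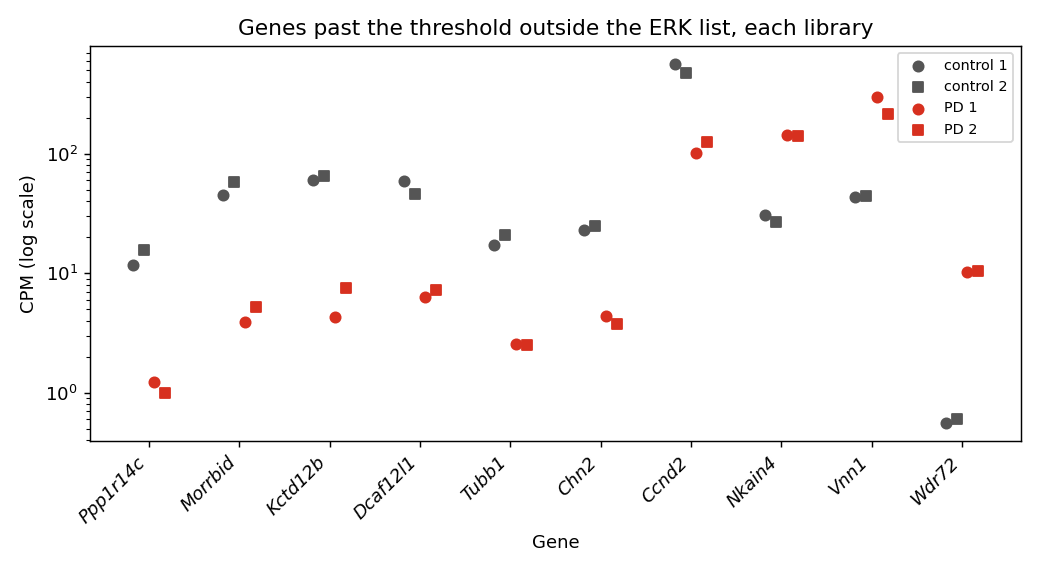
CPM (y axis, log scale) of the 10 genes past the threshold outside the ERK target list in each of the 4 libraries (grey controls, red PD; circle for replicate 1, square for replicate 2). In each gene the 2 PD libraries lie together and apart from the 2 controls, for example 265 and 262 counts against 15 and 16 in Wdr72.

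Just beyond the threshold, the following 8 genes outside the ERK list had adjusted p between 0.0604 and 0.0909, and most were named after their values were seen. Tmem204, a membrane protein gene of vessels, had 527, 539, 117 and 117 counts (log2 fold change -2.12, adjusted p = 0.0604). Gpm6a, a neuronal membrane glycoprotein gene, had 524, 685, 62 and 49 counts (adjusted p = 0.0648), and Prkg2, a cyclic GMP-dependent kinase gene, had 359, 413, 15 and 4 (adjusted p = 0.0759). The PD libraries were below both controls in all 3. Stambpl1, a deubiquitinase gene, had 639, 998, 140 and 104 counts (adjusted p = 0.0769). Adam9, a membrane-anchored metalloprotease gene, had 3012, 2622, 1147 and 929 counts (adjusted p = 0.0889). Gfra2, a co-receptor gene for neurturin, had 325, 216, 23 and 24 counts, and Rgs5, a regulator of G-protein signalling, had 12387, 16694, 1874 and 3256 (both adjusted p = 0.0909). Arl4c, a small GTPase gene, was the 1 of these 8 that was higher with PD, at 1148, 1137, 3105 and 2703 counts (log2 fold change 1.41, adjusted p = 0.0909). None of these passed the test, though their groups did not overlap.

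The list of epithelial adhesion genes had the largest share of higher members among the lists with at least 10 tested genes. In bulk samples fewer cells of a type and less RNA per cell cannot be told apart, here and below. Of 39 tested genes for junction proteins, keratins, epithelial splicing factors and their regulators, 24 (61.5%, against 5.15% of all genes) were at least 2-fold higher without overlap and 0 were lower, with a median log2 fold change of 2.92 against 0.0032 over all genes. None passed the test (adjusted p of 0.105 at the lowest). The 2 PD libraries differed: without PD replicate 1 the median was 1.23 (22 higher, 1 lower), and without PD replicate 2 it was 3.41 (29 higher, 0 lower). Cldn6, a tight junction claudin gene, had 7 and 220 counts in the controls and 11667 and 1404 with PD (log2 fold change 5.89, SE 1.59, adjusted p = 0.227). Cldn4, another claudin gene, had 94, 553, 13532 and 992 counts (log2 fold change 4.53, SE 1.44, adjusted p = 0.296). Cdh1, which encodes E-cadherin, had 49, 101, 2076 and 537 counts (log2 fold change 4.17, SE 0.90, adjusted p = 0.171). In each of these the highest library was PD replicate 1, and PD replicate 2 was still above both controls.

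Other epithelial genes followed the same order of libraries. Epcam, an epithelial adhesion molecule gene, had 23, 67, 1351 and 229 counts, and Krt7, a simple epithelial keratin gene, had 283, 431, 7594 and 926. Spint1, an inhibitor of membrane serine proteases, had 84, 64, 966 and 181 counts (log2 fold change 3.00, adjusted p = 0.26). Sprr1a, a cornified envelope gene, had 14, 41, 4150 and 199 counts (log2 fold change 6.34, adjusted p = 0.215). The PD libraries were closer to each other for 3 members. Grhl3, a Grainyhead transcription factor gene of surface epithelium, had 166, 88, 1333 and 1108 counts (log2 fold change 3.33, SE 0.49, adjusted p = 0.105). Elf3, an epithelial ETS factor gene, had 11, 6, 209 and 81 counts (log2 fold change 4.13, SE 0.64, adjusted p = 0.105). Cldn9 had 1, 0, 54 and 41 counts, a ratio of 99.6 with a 95% counting interval of 17.45 to 3975. Intervals and floors given here cover counting error only.

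Markers of endoderm, an epithelium that a mesoderm explant could hold, were read beside this list. Foxa2, an endoderm and node factor gene, had 0, 4, 169 and 79 counts, Foxa1 4, 6, 117 and 41, and Afp, an endoderm serum protein gene, 24, 15, 892 and 143, so all 3 were highest in PD replicate 1. Of 17 tested definitive endoderm and gut genes, which include Epcam and Cldn6, 5 were higher (29.4%, against 5.15% of all genes). A further 4 were lower (23.5%, against 6.45%), and summed levels of the list were 5394, 4739, 10930 and 6991 CPM. Of these, Cldn6 gave 0.26, 8.26, 448.4 and 56.4 CPM and Epcam 0.86, 2.52, 51.9 and 9.20. The sums thus do not show the higher members alone. Of 24 visceral endoderm and yolk sac genes 10 were tested, with 6 higher (60%) and 1 lower (10%). Unlike Afp, the higher members Cited1 (75, 93, 202 and 223 counts) and Slc39a8 (1104, 1986, 4311 and 5153) were highest in PD replicate 2. The sums of this list were 693.9, 678.0, 662.7 and 762.3 CPM. They include the lower member Apoe, an apolipoprotein gene, at 243.6, 243.3, 114.0 and 56.83 CPM, so they do not show the higher members alone. Of the members not tested, Hnf4a, Apoc2, Fga and Fgg were at 0 in all 4 libraries, while Spp2 had 0, 0, 35 and 9 counts, Amn 4, 3, 11 and 1, and Apob 3, 0, 4 and 11. Of 8 tested trophoblast genes, which include Krt7, 2 were higher and 2 lower (25% each), with sums of 593.4, 401.7, 943.1 and 1165 CPM. The part of such cells in the epithelial difference was not tested.

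**Figure D4:**
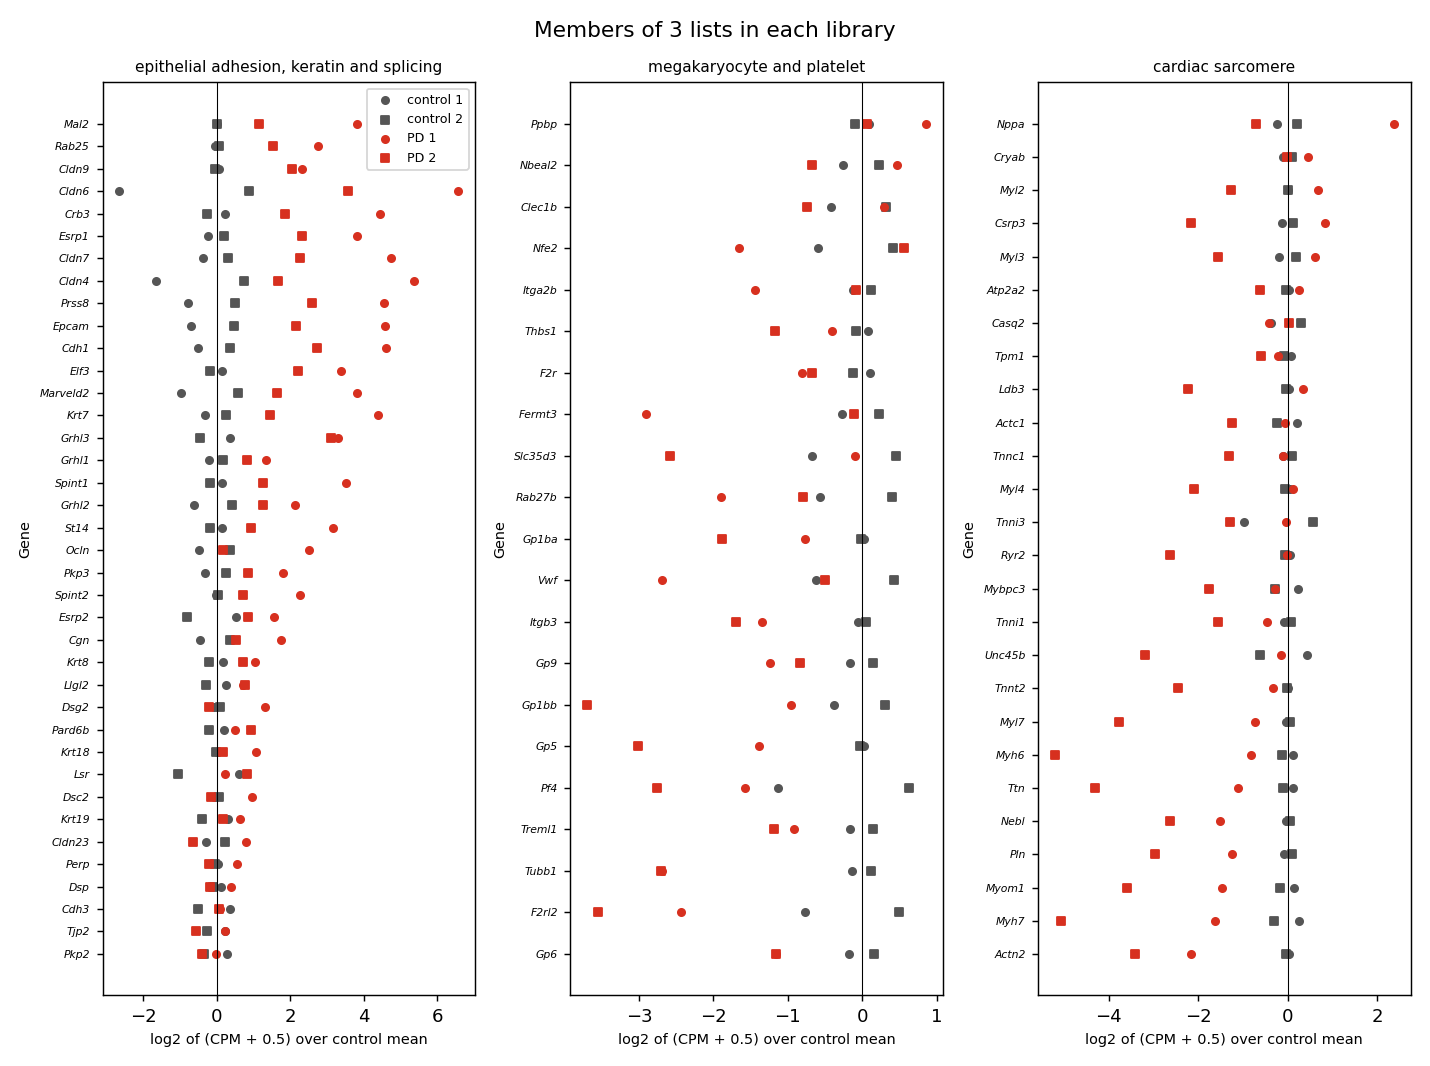
Tested members of the epithelial, megakaryocyte and platelet, and cardiac sarcomere lists (rows) by library, as log2 of CPM plus 0.5 over the control mean (x axis; grey controls, red PD, circle for replicate 1, square for replicate 2). Most epithelial members lie right of 0 and farthest in PD replicate 1, most megakaryocyte members lie left of 0 in both PD libraries, and most sarcomere members lie farthest left in PD replicate 2.

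Matrix proteases and matrix proteins held several of the largest differences at moderate to high levels. Mmp9, the gelatinase B gene, had 8551 and 5686 counts in the controls and 120 and 162 with PD, that is 267 ± 75.3 against 5.56 ± 1.34 CPM (SD, n = 2 libraries; edgeR log2 fold change -5.58, SE 0.85, adjusted p = 0.105). Mmp2, the gelatinase A gene, had 4897, 3683, 1593 and 1563 counts (log2 fold change -1.37, adjusted p = 0.148), and Plau, the urokinase gene, 96, 79, 24 and 15. Both PD libraries were below both controls for these 3 secreted proteases, and the adjusted p did not pass. Adamts1, a protease that cleaves versican, was on the other side with 1818, 1137, 3071 and 4200 counts (log2 fold change 1.37, adjusted p = 0.155), and Reck, an inhibitor of matrix metalloproteases, had 665, 400, 886 and 1364. Over the 30 tested proteases and inhibitors, 6 were lower (20%, against 6.45% of all genes) and 4 higher (13.3%, against 5.15%), with a median log2 fold change of -0.33.

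Of 51 laminin, proteoglycan and other matrix genes, 4 were lower (7.84%) and 7 higher (13.7%), with a median of 0.07. Bgn, the gene of the proteoglycan biglycan on the X chromosome, had 2426, 2737, 329 and 259 counts (log2 fold change -3.07, SE 0.60, adjusted p = 0.154). Vcan, the versican gene, had 13015, 12134, 6149 and 5357 counts (log2 fold change -1.06, SE 0.16, adjusted p = 0.105), and Fbn1, the fibrillin 1 gene, 4765, 4243, 1622 and 1967 (adjusted p = 0.124). In all 3 the PD libraries were below both controls. Tnc, the tenascin C gene, had 8416, 6039, 1714 and 955 counts (log2 fold change -2.38, adjusted p = 0.153). Vtn, the vitronectin gene, had 0, 0, 139 and 77 counts, which is at least 75.5-fold higher when 3 counts over the controls serve as the floor. Fbln5, the fibulin 5 gene, had 231, 146, 483 and 999 counts, and Gpc1, the glypican 1 gene, 524, 374, 885 and 1579. The list thus held large differences in both directions.

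Of 31 tested collagen genes, 6 (19.4%, against 6.45% of all genes) were lower and 2 higher (6.45%, against 5.15%), among them Col4a1 of basement membranes at 6203, 4583, 3088 and 1628 counts and Col6a1 at 468, 466, 140 and 249. Of 33 integrin and focal adhesion genes, 7 (21.2%) were lower and 1 higher (3.03%). Itga1, the collagen-binding integrin alpha 1 gene, had 2635, 2374, 913 and 602 counts (log2 fold change -1.66, SE 0.23, adjusted p = 0.105), and Itga4, which pairs to bind fibronectin and VCAM1, had 442, 533, 172 and 201 (log2 fold change -1.31, adjusted p = 0.201). Itgb6, an epithelial integrin gene, was the member higher with PD at 5, 10, 148 and 26 counts. Of 39 actin, contractile, and SRF or YAP target genes, 3 were lower (7.69%, near the 6.45% of all genes) and 0 higher. Among the lower ones was Ankrd1, a YAP target gene, at 24157, 26060, 11519 and 5088 counts (adjusted p = 0.257). Of 24 genes for factors of the epithelial to mesenchymal transition and mesenchymal genes, 3 were higher (12.5%) and 2 lower (8.33%), with a median of -0.19. Pdpn, the podoplanin gene, had 733, 393, 2876 and 1929 counts (log2 fold change 2.16, SE 0.33, adjusted p = 0.105), and Msx2, a homeobox gene of lateral mesoderm, 1560, 869, 2982 and 3221.

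In the megakaryocyte and platelet list, 20 of 22 tested members had a log2 fold change below 0. Of 22 tested members, 12 (54.5%, against 6.45% of all genes) were lower without overlap and 0 higher, and the median log2 fold change was -1.42, between -1.67 and -1.04 when any 1 of the 4 libraries was left out. Summed levels were 1619 and 1606 CPM in the controls and 949.9 and 891.4 CPM with PD. Besides Tubb1, Itgb3, the integrin beta 3 gene of platelets and other cells, had 1637, 1747, 643 and 479 counts (log2 fold change -1.53, adjusted p = 0.203), and F2rl2, a thrombin receptor gene, 314, 775, 88 and 32 (log2 fold change -3.12, adjusted p = 0.159). Of the defining genes of the lineage, Pf4 had 61, 236, 40 and 10 counts, Gp5 132, 126, 40 and 4, and Gp6 13, 20, 0 and 0. The PD libraries were below both controls in all 3. The 28 tested blood and red cell genes did not follow the groups, with sums of 2837, 8169, 605.5 and 7514 CPM, 1 member higher and 0 lower. The part of blood lineage cells in the megakaryocyte difference was not tested.

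Of 26 cardiac sarcomere and related genes, 9 (34.6%, against 6.45% of all genes) were lower and 0 higher, with a median of -0.79, but the median was -2.24 without PD replicate 1 (21 lower) and -0.19 without PD replicate 2 (6 lower, 1 higher). Myh7, the beta myosin heavy chain gene, had 9384, 6261, 2478 and 205 counts (adjusted p = 0.509), and Myom1, the M-band myomesin gene, 1989, 1599, 622 and 128 (adjusted p = 0.354). Actn2, the Z-disc actinin gene, had 533, 505, 104 and 34 counts (log2 fold change -2.85, adjusted p = 0.169), and Nebl 3476, 3690, 1223 and 532 (log2 fold change -1.97, adjusted p = 0.172). All 4 were below both controls in both PD libraries, and the 2 PD libraries differed by more than 2-fold in each. Of 20 cardiac transcription factor genes, 7 (35%, against 6.45%) were lower and 0 higher. Mef2c, a factor for heart and vessel genes, had 4878, 5354, 1742 and 774 counts (log2 fold change -1.97, SE 0.38, adjusted p = 0.15), Nkx2-5 403, 90, 48 and 14, and Gata5 198, 98, 65 and 29. Of 35 endothelial genes, 6 (17.1%) were lower and 0 higher, among them Eng, a TGF-beta co-receptor gene of vessels, at 1066, 547, 319 and 248 counts.

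**Figure D5:**
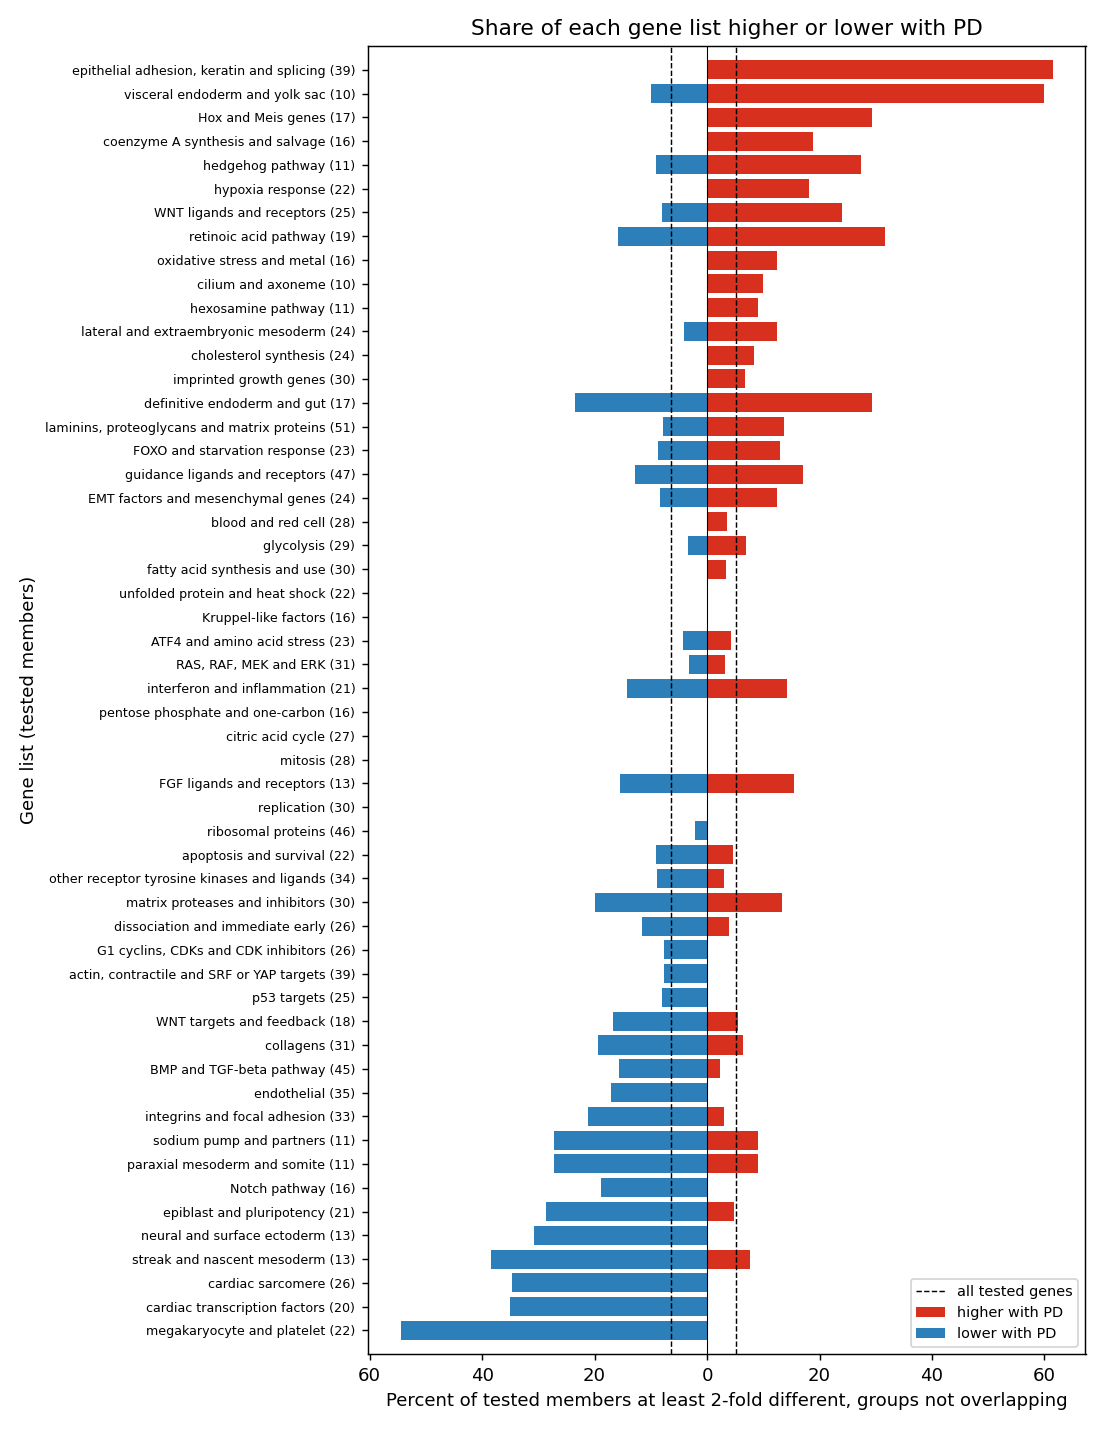
Percent of the tested members of each list (rows, number of tested members in parentheses, lists of at least 10) that were at least 2-fold higher (red, right) or lower (blue, left) with PD without overlap of the groups. Dashed lines mark the shares over all tested genes, 5.15% higher and 6.45% lower; the epithelial list reaches 61.5% higher and the megakaryocyte list 54.5% lower.

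Of 25 WNT ligand and receptor genes, 6 (24%, against 5.15% of all genes) were higher and 2 lower (8%, against 6.45%). Wnt2, a ligand gene of lateral mesoderm, had 976, 756, 4323 and 2501 counts (log2 fold change 2.04, SE 0.40, adjusted p = 0.153), and Wnt6 had 7, 7, 54 and 28. Both PD libraries exceeded both controls for these ligands. Frzb, a secreted WNT antagonist gene, had 600, 479, 73 and 27 counts (log2 fold change -3.37, SE 0.53, adjusted p = 0.105). Of 18 WNT target and feedback genes, 1 was higher (5.56%) and 3 lower (16.7%). Of 16 Notch pathway genes, 3 were lower (18.8%) and 0 higher: the ligand gene Jag1 had 3809, 4447, 579 and 229 counts (log2 fold change -3.30, SE 0.47, adjusted p = 0.105) and the receptor gene Notch1 had 292, 125, 41 and 74 (adjusted p = 0.273).

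In the BMP and TGF-beta pathway, 7 of 45 genes were lower (15.6%, against 6.45% of all genes) and 1 higher (2.22%, against 5.15%), with a median of -0.04. Id1, a target gene of BMP signalling, had 1764, 1512, 423 and 228 counts (log2 fold change -2.27, SE 0.31, adjusted p = 0.101). Tdgf1, the Nodal co-receptor gene Cripto, had 269, 253, 15 and 0 counts (log2 fold change -5.05, adjusted p = 0.16). Both were below the controls in both PD libraries. In the retinoic acid pathway, 6 of 19 genes were higher (31.6%, against 5.15% of all genes) and 3 lower (15.8%, against 6.45%), but several of the higher ones rested on PD replicate 1. Aldh1a2, the main retinoic acid synthesis enzyme gene of the embryo, had 7, 2, 1878 and 10 counts (log2 fold change 7.71, SE 2.25, adjusted p = 0.255), and Crabp2, a retinoic acid binding protein gene, had 80, 66, 1836 and 109 (adjusted p = 0.317). PD replicate 2 was close to the controls for both. Stra6, a retinol transporter gene, had 18, 19, 172 and 63 counts, and Rarb, a retinoic acid receptor gene that its ligand induces, had 416, 266, 2326 and 579. Cyp26c1, a gene of retinoic acid breakdown, was lower at 37, 35, 4 and 1 counts. Of 40 listed Hox and Meis genes 17 were tested, and 5 of these (29.4%, against 5.15%) were higher and 0 lower. Hoxb1, the most 3′ gene of its cluster, had 33, 21, 1625 and 269 counts (log2 fold change 5.17, adjusted p = 0.199), and Hoxb2 had 151, 130, 465 and 403 (log2 fold change 1.69, adjusted p = 0.198). Some of the 23 members not tested had counts in 1 PD library almost alone. Hoxa2 had 3, 1, 219 and 1 counts and Hoxa5 0, 0, 188 and 1, while Hoxb8 had 9, 9, 1 and 53. Among 12 tested genes with Hox symbols, 5 were higher (41.7%) and 1 lower (8.33%, against 6.45%).

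The following counts stand beside 5.15% higher and 6.45% lower over all tested genes. Of 31 genes that encode RAS, RAF, MEK, ERK and their regulators, 1 was higher and 1 lower (3.23% each), with a median of 0.03: Mras, a RAS relative, had 114, 64, 324 and 286 counts, and Rasa3, a RAS GTPase activating protein gene, 1959, 1142, 461 and 669. Among 13 FGF ligands and receptors 2 were higher and 2 lower (15.4% each), and Fgfr2 had 941, 468, 1934 and 2218 counts (log2 fold change 1.63, adjusted p = 0.181). Among 34 other receptor tyrosine kinases and ligands 1 was higher (2.94%) and 3 lower (8.82%). Pdgfra, a receptor gene of mesoderm, had 670, 478, 1931 and 2293 counts (log2 fold change 1.95, adjusted p = 0.4). Igf2r, the receptor gene that clears IGF2, had 19564, 16362, 7648 and 5821 counts (log2 fold change -1.35, SE 0.20, adjusted p = 0.105). Erbb4, a neuregulin receptor gene, had 193, 194, 37 and 11 counts. For these receptors the groups did not overlap, and none passed the test. Among 11 hedgehog genes 3 were higher (27.3%) and 1 lower (9.09%): the co-receptor genes Gas1 (699, 627, 2171 and 1211 counts) and Cdon (466, 283, 780 and 849) were higher and the antagonist gene Hhip (232, 124, 24 and 49) lower. Among 47 guidance genes 8 were higher (17%) and 6 lower (12.8%), including the ephrin ligand genes Efna1 (374, 314, 852 and 622) and Efnb2 (3036, 2828, 1745 and 917) on opposite sides.

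Of 26 genes for G1 cyclins, their kinases and inhibitors, 2 were lower (7.69%, near the 6.45% of all genes) and 0 higher. Ccnd2 fell, and Cdk6, a partner kinase of D cyclins, had 3602, 4135, 2258 and 1024 counts (log2 fold change -1.18, adjusted p = 0.285). Of 30 replication genes and 28 mitosis genes, 0 were 2-fold different in either direction, with medians of -0.05 and 0.07. Few genes of such levels differed in this way (2.44% of all genes from 100 to 1000 CPM), and the lists were not matched for level. Top2a had 17221, 18390, 13296 and 15087 counts (log2 fold change -0.26, adjusted p = 0.767). Among 22 apoptosis and survival genes, 2 were lower (9.09%, against 6.45% of all genes) and 1 higher (4.55%, against 5.15%). Morrbid fell, and Bcl2, a survival gene, had 402, 322, 98 and 35 counts (log2 fold change -2.39, adjusted p = 0.199). Bmf, a death-promoting relative, had 108, 95, 238 and 233 (log2 fold change 1.28, adjusted p = 0.184). The PD libraries lay on 1 side of both controls for both genes. Among 21 epiblast and pluripotency genes 6 were lower (28.6%, against 6.45%) and 1 higher. Lin28a, an RNA-binding protein gene of early embryonic cells, had 12201, 12346, 5700 and 3784 counts (log2 fold change -1.31, SE 0.20, adjusted p = 0.105), Lin28b, its relative, 1442, 1640, 782 and 627 (log2 fold change -1.06, adjusted p = 0.159), and Hmga2, a chromatin protein gene of early embryonic cells, 13023, 17105, 4070 and 1656 (log2 fold change -2.34, adjusted p = 0.12). All 3 were below both controls in both PD libraries.

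Metabolic and stress lists ranged from no member to 18.8% higher, against 5.15% of all genes. Of 27 citric acid cycle genes, 16 pentose phosphate and one-carbon genes, 22 unfolded protein and heat shock genes and 16 Kruppel-like factor genes, 0 were 2-fold different without overlap. Of 22 hypoxia response genes, 4 were higher (18.2%) and 0 lower, with summed levels of 3220, 2341, 4323 and 7896 CPM, and without PD replicate 2 the counts were 1 higher and 2 lower. The hypoxia sums include the higher member Slc2a1, a glucose transporter gene, at 2065, 1165, 3120 and 6276 CPM, so they do not show the other members. Of 16 oxidative stress and metal genes, 2 were higher (12.5%) and 0 lower. Of 16 coenzyme A genes, 3 were higher (18.8%) and 0 lower: Vnn1 rose, and Enpp1, a gene for an enzyme that cleaves nucleotides outside the cell, had 155, 121, 951 and 749 counts (log2 fold change 2.69, SE 0.50, adjusted p = 0.147). Of 24 cholesterol synthesis genes, 22 had a log2 fold change above 0 with a median of 0.64, and 2 were 2-fold higher (8.33%). Among these was Insig1, a sterol feedback gene, at 552, 601, 1444 and 1928 counts (log2 fold change 1.62, adjusted p = 0.18). Of 30 imprinted growth genes, 2 were higher (6.67%), among them Peg10 at 3695, 2635, 6485 and 6257 counts (log2 fold change 1.08, SE 0.19, adjusted p = 0.132). Of 23 FOXO target and starvation genes, 3 were higher (13%) and 2 lower (8.7%, against 6.45% of all genes). Txnip, a glucose-responsive gene that restrains glucose uptake, had 471, 529, 163 and 205 counts (log2 fold change -1.37, adjusted p = 0.148), and Ifitm1, an interferon-inducible gene of the germ cell list, had 410, 440, 1565 and 1285 (log2 fold change 1.81, SE 0.27, adjusted p = 0.105).

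Some genes were at 0 in a whole group. Outside the ERK list, 14 of the 14985 tested genes had 0 counts in both PD libraries and 21 had 0 in both controls. Each passed the filter only through the group with counts, so it had to differ. Eomes, a T-box factor gene of the streak and early mesoderm, had control counts of 185 and 145 and PD counts of 0 and 0. With 3 counts over the PD group as the floor, it was at least 105-fold lower. Adamtsl3, a matrix protein gene related to the ADAMTS proteases, had 151 and 135 counts against 0, at least 90.9-fold lower. Vgf, a secreted neuropeptide precursor gene, had 53 and 34 against 0, at least 27.7-fold lower. None of these passed edgeR's test (adjusted p of 0.105, 0.105 and 0.18). On the other side, Osr2, a zinc finger factor gene of embryonic limb and palate, had 0 and 0 counts in the controls against 40 and 33, at least 25.5-fold higher (adjusted p = 0.15). Adamtsl3, Vgf and Osr2 were named after their values were seen.

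Further genes among the largest differences showed the same contrast between even and uneven PD libraries. Rxfp1, the relaxin receptor gene, had 809, 818, 100 and 0 counts (log2 fold change -3.98, SE 1.75, adjusted p = 0.495), and Rerg, a RAS-like growth inhibitor gene, had 1005, 923, 127 and 19 (adjusted p = 0.247). Rprm, the reprimo gene of cell cycle arrest, had 1941, 1562, 350 and 186 counts (adjusted p = 0.18), Nupr1, a stress-induced gene, 1367, 2356, 205 and 248 (adjusted p = 0.182), and Fibin 647, 805, 106 and 65 (adjusted p = 0.191). All 5 were lower in both PD libraries. Sorbs2, a sarcomere and stress fibre adaptor gene, had 1074, 1078, 228 and 83 counts (adjusted p = 0.131). Prss35, a serine protease gene, was higher mainly in PD replicate 2, at 42, 55, 203 and 1468 counts (log2 fold change 4.20, adjusted p = 0.197). Apela, which encodes a hormone ligand of the apelin receptor, had 89, 59, 1820 and 294 counts and was highest in PD replicate 1 (log2 fold change 3.88, adjusted p = 0.176).

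By kind of gene, 3 of the genes past the threshold that rose and 11 that fell were protein-coding, among 13218 tested, and Morrbid was the 1 long intergenic noncoding RNA gene among 297. Of these 297 genes, 42 (14.1%) were at least 2-fold lower without overlap and 21 (7.07%) higher, against 6.08% and 5.08% of protein-coding genes. These shares depend on the level. Below 1 CPM, 15.3% of all tested genes were lower and 12% higher, and from 10 to 100 CPM 2.68% and 2.39%. The kinds of gene were not matched for level, and the part of level in this difference was not tested. Zinc finger genes with Zfp symbols, the largest family examined with 356 tested genes, had 9 higher (2.53%) and 7 lower (1.97%). None of 77 mitochondrial ribosome genes and none of 45 complex I genes was 2-fold different without overlap.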

How the data were processed

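Polyadenylated RNA of 6 libraries (2 control, 2 PD, 2 YZ9) was measured. Per the submitters' processing notes the build was GRCm38 and the tools were STAR 2.7.9a, CASAVA 1.8.2 and DESeq2 1.40.1. How reads were counted, and on which annotation, is not given in the sources used here. Per the file headers, the deposited tables give each gene's count in each library. The deposited normalized signal columns are these counts divided by a size factor per library. The deposited log2 fold changes and standard errors, the test score (the authors' Wald statistic) and the p-value columns come from the authors' DESeq2 test, and only their calls at the 0.05 threshold were used.

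Counts were scaled by TMM and tested with edgeR 4.0.16 in R 4.3.3 (quasi-likelihood, all 6 libraries in 1 fit, contrast PD minus control, 2-sided, Benjamini-Hochberg over the 15032 genes, threshold 0.05), with a common dispersion of 0.0955. SE is the size of the log2 fold change divided by the root of its F value. CPM use effective library sizes, and an SD is taken over a group's 2 libraries. Mean chi-square statistics per gene were 55.5 between the controls and 97.5 between the PD libraries, where sampling alone gives about 1. On average the spread between libraries thus exceeded sampling error. This mean does not describe genes of few counts, for which depth also limits the precision. The pipeline was tested on simulated data. Genes were matched to GENCODE M21 (14983 of the tested genes), which gave positions and the opposite-strand overlaps (4499 genes). RefSeq promoter windows were searched on both strands for the ETS, AP-1, SRF, EGR, GRHL (AACCGGTT) and TCF/LEF (CTTTGAT) motifs. The Morrbid, Cldn4 and Spint1 windows were chosen after their matches were seen.

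The gene rule, the 61 gene lists, the 30 families by symbol and the tests were chosen with earlier results of these data known, so no list is independent evidence. Named genes were those past the threshold outside the ERK list; the 12 largest rises and 12 largest falls among autosomal protein-coding genes without overlap and with a mean of at least 20 CPM in the higher group; and up to 3 members per list and direction, or the most abundant member. The list members not tested, Tmem204, Prkg2, Adam9, Gfra2, Rgs5, Arl4c, Spint1, Pf4, Gp5, Gp6, Myh7, Adamtsl3, Vgf, Osr2 and the genes of the closing section other than Ccl2 and Slc2a3 were named after their values were seen. Results for 2 list members are not reported here. Alternatives were other scalings, filters, tools, libraries left out, sex, and the replicate number as a block.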

Additional observations from a re-analysis of the deposited data

How the results depend on the processing

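The genes past the threshold, 3 higher and 12 lower as reported, depended strongly on the fit. They were 5 and 19 in a fit of the 4 libraries alone, 61 and 62 with sex as a covariate, 403 and 299 in the male libraries alone, 369 and 343 with no filter, 311 and 320 with DESeq2, and 280 and 301 with DESeq2 in the 4 libraries. Leaving out 1 library of the 6 gave 0 to 5 higher and 0 to 17 lower genes, with 5 and 2 without PD replicate 2 and 0 and 0 without either control. All 3 higher genes were shared with the fits of the 4 libraries alone, with sex, with no filter and with DESeq2. So were all 12 lower genes, except 11 in the 4 libraries alone. Other fits shared fewer: without either PD library most of these genes did not pass, and with a replicate block 0 higher and 1 lower were shared. The labels do not pair libraries of 1 number, and the correlation of deviations was -0.1001 between controls and PD, 0.181 between controls and YZ9 and 0.349 between PD and YZ9 libraries. Adding a replicate block gave 0 and 1, with the replicate block in the 4 libraries alone 25 and 54, and with the numbers crossed 35 and 39 (both added after seeing the data). Genes at least 2-fold different without overlap, 774 higher and 969 lower, were 210 and 257 at a mean of at least 10 CPM in the higher group, and between 992 and 1312 higher and 1117 and 1559 lower without 1 library, the most higher genes without control replicate 1 (1312) and the most lower genes without PD replicate 1 (1559). The cause of these shifts was not tested.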

Other observations

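Gene families defined by symbol alone, which hold genes outside the lists described above, differed in how many members separated the groups. Of 12 tested claudin genes, 6 (50%) were at least 2-fold higher with PD without overlap and 0 were lower, and besides those named above Cldn7 had 10, 24, 785 and 123 counts and Cldn11 0, 2, 73 and 18 (control 1, control 2, PD 1, PD 2). Of 30 genes for sodium and calcium channel subunits, 10 (33.3%) were lower and 2 higher. Scn3b, a sodium channel beta subunit gene, had 411, 275, 63 and 82 counts (edgeR log2 fold change -2.17, adjusted p = 0.154), and Cacng6, a calcium channel gamma subunit gene, had 35, 13, 0 and 0. Of 29 genes with phosphodiesterase or adenylate cyclase symbols, 8 (27.6%) were lower and 0 higher, among them the cyclic AMP phosphodiesterase genes Pde4a at 1359, 744, 325 and 262 counts (adjusted p = 0.18) and Pde3a at 720, 793, 353 and 205 (adjusted p = 0.18). These shares stand beside 6.45% lower and 5.15% higher over all tested genes.

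Of 54 interleukin, chemokine and receptor genes, 13 (24.1%, against 6.45% of all genes) were lower and 6 higher (11.1%, against 5.15%). Il11, an interleukin 6 family cytokine gene, had 130, 127, 2 and 5 counts (edgeR log2 fold change -5.08, SE 0.69, adjusted p = 0.103), and Ccl2, a monocyte chemokine gene, had 5961, 7292, 2213 and 2227 (log2 fold change -1.51, adjusted p = 0.185). Both PD libraries were below both controls in each. Cxcl16, a membrane-bound chemokine gene, was on the other side at 16, 34, 920 and 98 counts (adjusted p = 0.227). Among 245 solute carrier genes, the largest transporter group, 23 (9.39%) were higher and 14 (5.71%) lower. Slc2a3, the glucose transporter 3 gene, had 12136, 7488, 30025 and 47831 counts (log2 fold change 2.06, SE 0.32, adjusted p = 0.105), and the iron exporter gene Slc40a1 had 461, 484, 953 and 1609 (log2 fold change 1.52, adjusted p = 0.155). Kcnk1, a potassium leak channel gene, had 484, 307, 2124 and 1307 counts (log2 fold change 2.18, adjusted p = 0.105). Potassium channel genes as a family had 9 higher and 9 lower of 41, or 22% each, above the shares over all genes in both directions. Below 1 CPM those shares were 12% higher and 15.3% lower. The families of this section were not matched for level, and the part of level in their shares was not tested. The families and the genes named here were chosen after earlier results were known, and none of the named genes passed the threshold.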
